A study of Mus musculus with 6 samples.

Results

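Many mouse genes that make an RNA from the strand opposite a better known gene are named after that gene, with the ending os (opposite strand) or as (antisense). In the gene tables of this study, 172 of 24972 symbols consisted of another listed symbol plus os or as and an optional digit. A further 3 such symbols were not analysed here. One of the 172, Hras, a signalling GTPase gene, matched by spelling alone and was set aside, with values of 0 to 841. The other 171 genes, 169 ending in os and 2 in as, are named after 164 partner genes, and 7 partners have more than 1 such gene. RNA came from maxillary first molars, the upper first cheek teeth, of mice at postnatal day 1. There were 2 libraries each of Ascl5WT/WT (the control), Ascl5Mut/WT (the Ascl5 mutation on 1 allele) and Ascl5Mut/Mut (on both alleles). Ascl5 belongs to the achaete-scute family of transcription factors, and the study asked how its mutation alters molar gene expression. The labels name 1 sequencing batch and do not describe the mutation, the mouse strain or whether animals or teeth were pooled. The p-values below therefore measure only the spread between these samples, which may be technical.

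Antisense RNAs are mostly noncoding. Some are made from the same start region as the partner and run away from it, some run into the far end of the partner, and some lie wholly inside it. A few are known regulators or precursors: antisense RNAs take part in genomic imprinting and in X inactivation, and Dnm3os is the precursor of microRNAs of embryonic mesenchyme. When a library kit keeps the strand of each RNA, reads of 2 overlapping genes are told apart by strand, and the strand chosen in counting decides to which gene they go. The libraries here were made with a kit that keeps the strand, per the labels. The strand setting used for counting is not given in the sources used here, so each gene is set beside its partner.

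Values are the authors' normalized counts. What 1 read was worth lay between 108.7 and 139.8 normalized counts per library, and the estimated depth between 90477 and 117386 counted reads. A gene listed at 0 is compatible with up to 3 reads, or 326 to 419 normalized counts, a limit that covers counting error alone. Genes at 0 made up 66.8% to 71.0% of each library in the Ascl5Mut/Mut table. Ascl5 itself was at 0 in all 6 libraries, so the targeted gene does not check the labels. Of 8 tooth markers, 2 to 6 were above 0 in a library. Their sum was 24357 and 14295 in Ascl5WT/WT, 10020 and 16288 in Ascl5Mut/WT and 1742 and 7465 in Ascl5Mut/Mut. Most of it was Trp63, an epithelial gene, while Pax9, Lhx8 and Bmp4 were at 0 in at least 4 of the 6 libraries. Summed osteoclast, bone and keratinized oral epithelium markers were each lower in both Ascl5WT/WT libraries than in any mutant library. Single markers such as Acp5 and Bglap overlapped. The sums stand beside the genotype comparison.

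In the GENCODE vM21 annotation (GRCm38), 167 of the 171 genes were found, and all 167 lie on the strand opposite their partner. Of these, 132 are classed as antisense, 12 as protein-coding and 11 as lincRNA, and the others fall in smaller classes. In 53 pairs the antisense gene lies inside the partner. In 49 the genes are head to head and overlap, so that each runs across the start of the other, and in 30 they are head to head without overlap. In 20 pairs the ends overlap, in 9 the ends face each other without overlap, and in 6 the partner lies inside the antisense gene. Exons of the 2 genes overlap in 87 pairs, by 12 to 3255 bases with a median of 212, and in 80 pairs they do not. In 58 pairs the overlap reaches coding exons of the partner. Counting all genes and not only partners, 94 antisense genes lie opposite exons of some gene. Peg3os, Ggnbp2os, Nkx2-2os and Stk35os1 were found only in RefSeq.

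Shared bases of 5 pairs show what an overlap means for counting, because a read from either RNA covers them and differs only in strand. Each is read along the antisense gene, 5′ to 3′, from GENCODE transcripts on GRCm38, and covers only coding exon of the partner. Capitals mark the 3 bases opposite an annotated start codon of the partner. The stretch of Peg3os is chr7:6707509-6707624 (plus strand), that of Dhrs13os chr11:78032608-78032665 (minus strand), that of Uckl1os chr2:181581856-181581968 (plus strand), that of Mccc1os chr3:36000481-36000557 (plus strand) and that of Ppifos chr14:25697573-25697669 (minus strand).
Peg3os: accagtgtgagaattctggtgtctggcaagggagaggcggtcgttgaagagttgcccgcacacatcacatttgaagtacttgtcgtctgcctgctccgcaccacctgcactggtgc
Dhrs13os: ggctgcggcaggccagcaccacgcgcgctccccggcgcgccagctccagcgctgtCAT
Uckl1os: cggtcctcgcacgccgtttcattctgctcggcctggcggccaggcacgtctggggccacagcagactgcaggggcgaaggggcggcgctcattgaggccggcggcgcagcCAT
Mccc1os: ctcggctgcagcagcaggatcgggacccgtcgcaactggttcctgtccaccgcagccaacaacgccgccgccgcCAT
Ppifos: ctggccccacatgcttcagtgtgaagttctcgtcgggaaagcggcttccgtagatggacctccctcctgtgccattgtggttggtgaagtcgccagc

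Dnm3os carries 2 microRNA genes in its exon, Mir199a-2 (chr1:162217814-162217923) and Mir214 (chr1:162223368-162223477), on its own strand. Their mature RNAs are printed from RefSeq (GRCm38.p6), 5′ to 3′, because they are the known products of this antisense gene. Capitals mark the seed, bases 2 to 8, which pairs with target RNAs. The 4 seeds all differ.
miR-199a-5p: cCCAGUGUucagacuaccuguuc
miR-199a-3p: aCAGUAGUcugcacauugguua
miR-214-5p: uGCCUGUCuacacuugcugugc
miR-214-3p: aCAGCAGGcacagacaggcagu

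The order of antisense genes and partners by detection depended on the level required. Above 0 in all 6 libraries were 27 of 171 antisense genes (15.8%), 32 of 164 partners (19.5%) and 3319 of 24961 genes named in both tables (13.3%). The same held for 95 of 514 other antisense genes of GENCODE (18.5%), 28 of 1126 lincRNA genes (2.49%) and 3045 of 20533 protein-coding genes (14.8%). At 0 in all 6 libraries were 83 antisense genes (48.5%), against 28.0% of partners, 44.2% of all genes and 43% of other antisense genes. Partners were also longer, with a median of 5047 exon bases against 1619, and the part of length was not tested. With at least 3 estimated reads required in each library, 16 of 171 antisense genes (9.36%) and 11 of 164 partners (6.71%) remained, so the order of the 2 sets turned. Per library, 53 and 56 were above 0 in Ascl5WT/WT, 55 and 59 in Ascl5Mut/WT, and 59 and 45 in Ascl5Mut/Mut. The lowest, 45, was in Ascl5Mut/Mut replicate 2, with 90477 estimated reads, while replicate 1 of that genotype had 59 with 92306. The part of depth in these counts was not tested.

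Detection differed with what lies opposite. Of 94 antisense genes opposite exons of some gene, 23 (24.5%) were above 0 in all 6 libraries, against 3 of 73 (4.11%) opposite none. The 3 are Arhgap27os3, Bcas3os1 and Dnm3os. Genes opposite exons were also longer, with a median of 2011 exon bases against 1164, and the part of length in this difference was not tested. By arrangement, 9 of 29 tail-to-tail genes, 8 of 53 inside the partner and 9 of 79 head-to-head genes were above 0 throughout. None of the 12 antisense-named genes that code for protein was above 0 in all 6, and their summed level per library was 0 to 2272.

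**Figure D1:**
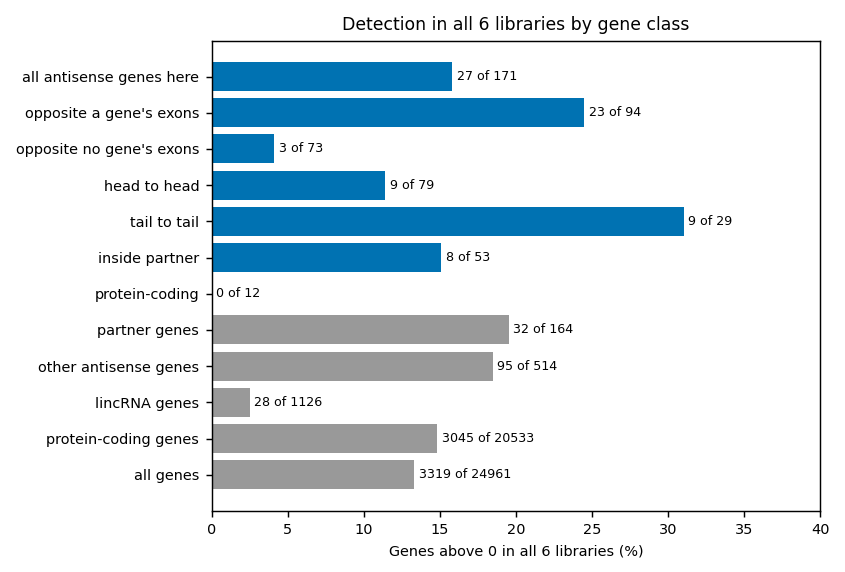
Share of genes above 0 in all 6 libraries (percent, x axis) for the antisense genes and their subsets (blue) and for other gene classes (grey), with counts beside the bars. Antisense genes opposite exons (24.5%) stand above those opposite none (4.11%), and lincRNA genes are at 2.49%.

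Antisense genes together were assigned more signal than their partners in every library. Their summed level was 158003 and 173421 in Ascl5WT/WT, 218922 and 207154 in Ascl5Mut/WT, and 241540 and 158321 in Ascl5Mut/Mut, or 1.24% to 1.87% of each library. The sum of the 164 partners was 60633 to 84603. The antisense sum was 2.20 to 2.92 times the partner sum. Without Peg3os and Peg3 the ratio was 2.08 and 1.51 in Ascl5WT/WT, 1.73 and 1.83 in Ascl5Mut/WT, and 1.38 and 1.15 in Ascl5Mut/Mut. Peg3os alone held 27.8% to 61.9% of the antisense sum. The strand setting is not given, so whether counts here and below came from antisense RNA or genes opposite was not tested.

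Levels of 2 genes were compared per kilobase of exon. In 22 of 167 pairs the antisense gene was above its partner in all 6 libraries, in 11 the partner was above, in 95 the order varied, and in 39 both were 0 throughout. Among the 87 pairs with overlapping exons, the antisense gene was above in 18 and the partner in 2. Among the 80 pairs without overlap, the antisense gene was above in 4 and the partner in 9. The 4 are Arhgap27os3, Bcas3os1, Brip1os and Dnm3os. Without division by length the antisense gene was above in 16 pairs. Over the 78 pairs with both genes above 0 somewhere, Spearman's rho between the mean levels per kilobase was -0.002, given as a description over genes that share the same 6 libraries.

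**Figure D2:**
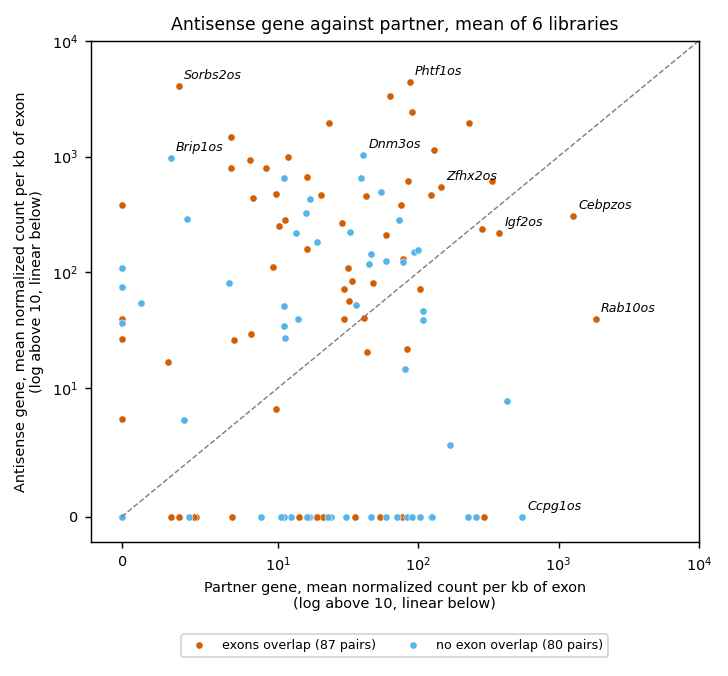
Mean normalized count per kb of exon over 6 libraries for each antisense gene (y axis) against its partner (x axis), on axes that are logarithmic above 10 and linear below, with the dashed line marking equal levels. Most abundant antisense genes with overlapping exons (orange) lie above the line, while Rab10os, Cebpzos and Ccpg1os lie below it.

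Partner genes that stood above included Rab10, which encodes a vesicle-trafficking GTPase, with 3648 to 8784 normalized counts, against 0 to 678 for Rab10os. Cebpz, a transcription and ribosome biogenesis factor gene, had 3069 to 9893 against 0 to 933 for Cebpzos. These are the 2 pairs with overlapping exons whose partner was above. Per kilobase, Cebpz averaged 1271 against 308 for Cebpzos, and Rab10 1837 against 39.5 for Rab10os. Of the other 9 antisense genes below their partner, 7 were at 0 in all 6 libraries: Atad3aos, Ccpg1os, Med9os, Pax6os1, Rsf1os1, Smc2os and Sox6os. Trpc5os averaged less than 1 estimated read. Their partners include Pax6 and Sox6, developmental transcription factor genes, at 1051 to 5167 and 328 to 2676.

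Tsix and Xist, the antisense pair of X inactivation, are not named by the same rule but give a known reference. Xist RNA coats the inactive X chromosome in cells with 2 X chromosomes, and Tsix is known from embryonic stem cells, where it opposes Xist. Tsix had 126014 normalized counts in Ascl5WT/WT replicate 2, 259527 in Ascl5Mut/WT replicate 2 and 310649 in Ascl5Mut/Mut replicate 2, and 0 in each replicate 1. Xist had 6106, 9179 and 9751 in the same replicate 2 libraries and 3060, 1411 and 322 in the replicate 1 libraries. The libraries thus fell into 3 with high Tsix, all replicate 2, and 3 with none, all replicate 1. The cause of this split was not tested. This pair was singled out after its values were seen, and the strand used in counting was not tested by it.

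Of the 171 antisense genes, 25 had a mean of at least 1000 normalized counts in a table and are described below. Of these, 22 were above 0 in all 6 libraries. In GENCODE 23 were found, of which 20 lie opposite exons of some gene, 19 overlap exons of the partner, and 20 stood above the partner per kilobase in all 6 libraries. Ascl5WT/WT values are those of the Ascl5Mut/Mut table, and each pair of values is replicate 1 and replicate 2. Separation of genotypes is described below, and it was frequent among all genes averaging at least 1000. Both Ascl5Mut/Mut libraries were above both controls in 22% of these and below in 21.8%. For Ascl5Mut/WT the shares were 21.1% and 19.5%. The share of all genes separated in both comparisons, or ordered over the genotypes, was not counted.

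**Figure D3:**
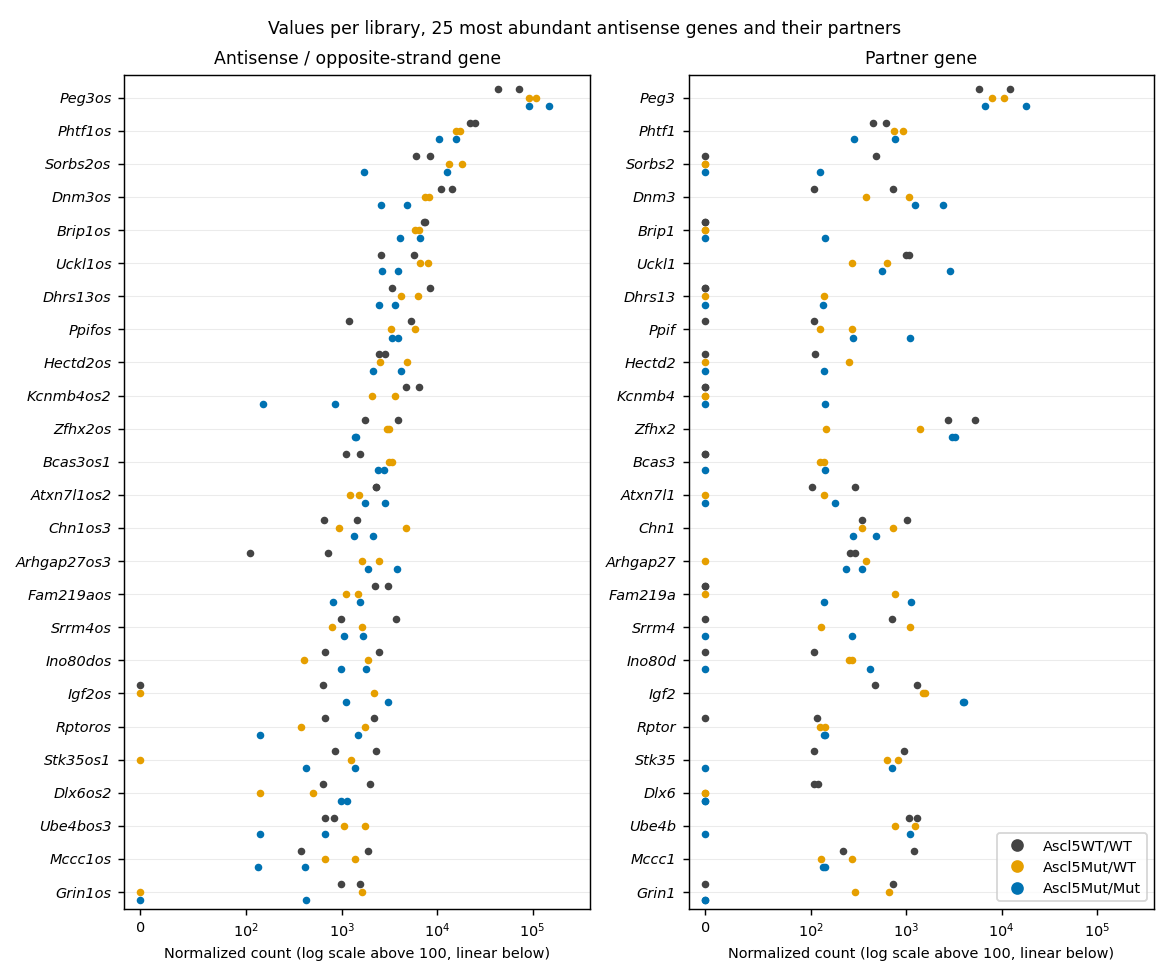
Normalized count in each library (x axis, logarithmic above 100 and linear below) for the 25 antisense genes averaging at least 1000 in either table (left) and their partners (right), with 1 point per library coloured by genotype. Peg3os reaches 149569, and most partners lie below their antisense gene or at 0.

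The imprinted loci come first. Peg3 is a paternally expressed gene for a zinc-finger protein, and Peg3os is transcribed inside it. Peg3os had 43929 and 72738 normalized counts in Ascl5WT/WT, 107638 and 91610 in Ascl5Mut/WT, and 149569 and 91047 in Ascl5Mut/Mut. Both mutant genotypes were above Ascl5WT/WT in all their libraries. It was the most abundant antisense gene in all 6 libraries and ranked between 4 and 20 among all genes of a library. Peg3 had 5786 and 12247 in Ascl5WT/WT, 10509 and 7986 in Ascl5Mut/WT, and 17856 and 6754 in Ascl5Mut/Mut, with overlapping groups. The RefSeq span of Peg3os (chr7:6706760-6707624) holds 865 bases, all within Peg3 exons, 749 of them untranslated and 116 coding, the stretch printed above. Per kilobase, Peg3os was 91.5 to 208 times the level of Peg3. The same bases belong to exons of both genes, and whether reads of Peg3 were counted for Peg3os was not tested.

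Igf2 encodes a fetal growth factor and is imprinted as well. Igf2os (chr7:142659693-142670356) overlaps its exons by 98 bases. Igf2os had 638 and 0 in Ascl5WT/WT, 2171 and 0 in Ascl5Mut/WT, and 3087 and 1113 in Ascl5Mut/Mut. Igf2 had 477 and 1315, 1561 and 1522, and 4052 and 3959 in the same order. In the separately normalized Ascl5Mut/WT table, the same Ascl5WT/WT libraries had 391 and 1103 for Igf2. Igf2 was highest in both Ascl5Mut/Mut libraries, while Igf2os was at 0 in 1 library of each of the other genotypes. Among the 3 pairs found in GENCODE in which both genes averaged at least 1000, which leaves out Peg3os, Igf2os had the lowest ratio to its partner per kilobase, 0.58, and Uckl1os the highest, 8.47.

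Genes inside or beside regulators of the cytoskeleton and membrane traffic follow. Dnm3 encodes a dynamin, a GTPase that pinches off membrane vesicles. Dnm3os (chr1:162217623-162225550) lies in an intron of Dnm3 and shares no exon base with it. Dnm3os had 14460 and 11096 in Ascl5WT/WT, 7470 and 8223 in Ascl5Mut/WT, and 2614 and 4847 in Ascl5Mut/Mut. The 3 genotypes did not overlap, with Ascl5Mut/WT between the others. Dnm3 had 109 and 733, 379 and 1074, and 1253 and 2410 in the same order, highest in both Ascl5Mut/Mut libraries. Between Ascl5WT/WT and Ascl5Mut/Mut the 2 genes thus stood in opposite order.

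Sorbs2 encodes an adaptor protein of actin and cell adhesion. Sorbs2os (chr8:45723325-45819297) lies inside Sorbs2 and overlaps its exons by 1051 bases. Sorbs2os had 8493 and 5968 in Ascl5WT/WT, 13385 and 18263 in Ascl5Mut/WT, and 12774 and 1718 in Ascl5Mut/Mut. The Ascl5Mut/Mut libraries were the farthest apart. Sorbs2 itself was at 482 in 1 Ascl5WT/WT library, 126 in 1 Ascl5Mut/Mut library and 0 in the other 4.

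Chn1 and Arhgap27 encode GTPase-activating proteins, which switch off small signalling GTPases. Chn1os3 overlaps Chn1 by 220 exon bases and had 661 and 1444 in Ascl5WT/WT, 4671 and 938 in Ascl5Mut/WT, and 2118 and 1331 in Ascl5Mut/Mut. Arhgap27os3 (chr11:103344753-103350124) shares no exon base with Arhgap27 and had 110 and 718, 1640 and 2445, and 3777 and 1899. Arhgap27os3 was above both Ascl5WT/WT libraries in all 4 mutant libraries, while Chn1os3 overlapped. Arhgap27 stayed between 0 and 381. Rptor encodes the scaffold of the growth regulator mTORC1, and Rptoros, inside it, had 138 to 2165 against 0 to 141 for Rptor. Bcas3os1, inside Bcas3 without exon overlap, had 1539 and 1105 in Ascl5WT/WT, 3141 and 3347 in Ascl5Mut/WT, and 2794 and 2377 in Ascl5Mut/Mut, against 0 to 140 for Bcas3.

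Channels, receptors and mitochondrial proteins form another set. Kcnmb4 encodes an accessory subunit of a calcium-activated potassium channel. Kcnmb4os2 (chr10:116473163-116475319) overlaps the exon at its start by 693 bases. Kcnmb4os2 had 4709 and 6504 in Ascl5WT/WT, 3582 and 2091 in Ascl5Mut/WT, and 849 and 149 in Ascl5Mut/Mut. The 3 genotypes did not overlap, and the lowest value is about 1 estimated read. Kcnmb4 was at 140 in 1 Ascl5Mut/Mut library and at 0 in the other 5. A second gene named for Kcnmb4, Kcnmb4os1, ranged from 0 to 1893 without that order. Grin1 encodes a glutamate receptor subunit, and Grin1os had 0 to 1649 against 0 to 721. Ppif encodes the mitochondrial protein cyclophilin D, and 921 of the 1159 exon bases of Ppifos lie opposite its exons. Ppifos had 5395 and 1193 in Ascl5WT/WT, 3288 and 5804 in Ascl5Mut/WT, and 3936 and 3372 in Ascl5Mut/Mut, against 0 to 1109 for Ppif. Mccc1os, opposite the start of a leucine breakdown enzyme gene, had 132 to 1871 against 128 to 1201 for Mccc1. Mccc1os lies opposite 198 exon bases of Mccc1 and 720 of Ccdc144b.

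Several partners are enzymes. Uckl1 encodes a uridine-cytidine kinase-like protein. Uckl1os had 5703 and 2595 in Ascl5WT/WT, 7967 and 6686 in Ascl5Mut/WT, and 2662 and 3921 in Ascl5Mut/Mut, and Ascl5Mut/WT was highest. Uckl1 ranged from 274 to 2888. Besides 459 exon bases of Uckl1, Uckl1os lies opposite 263 of Zfp512b. Dhrs13os, opposite the start of a short-chain dehydrogenase gene, had 8454 and 3361, 4154 and 6239, and 3647 and 2487, and its genotypes overlapped. Dhrs13 was at 0 in 4 libraries and at most 137. Dhrs13os also lies opposite 528 exon bases of Phf12. Hectd2 and Ube4b are ubiquitin ligase genes: Hectd2os had 2131 to 4878 against 0 to 254 for Hectd2, and Ube4bos3 138 to 1762 against 0 to 1302 for Ube4b. Stk35os1, named for a kinase gene, had 0 to 2295.

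Partners with roles in the nucleus complete the list. Brip1 encodes a DNA helicase of repair. Brip1os (chr11:86201370-86304443) starts 176 bases from it and runs the other way, opposite exons of Ints2 (512 bases) and Med13 (800 bases), which encode subunits of the Integrator and Mediator complexes. Brip1os had 7465 and 7240 in Ascl5WT/WT, 5941 and 6402 in Ascl5Mut/WT, and 6652 and 4049 in Ascl5Mut/Mut. Brip1 was at 140 in 1 library and 0 in 5, while Ints2 had 3688 to 8671 and Med13 1527 to 3734. All 4 mutant values of Brip1os lay below both Ascl5WT/WT values. Zfhx2os overlaps the homeobox gene Zfhx2 by 3255 bases, the widest overlap. Zfhx2os had 3909 and 1763 in Ascl5WT/WT, 3155 and 2977 in Ascl5Mut/WT, and 1372 and 1422 in Ascl5Mut/Mut. Zfhx2 had 2719 and 5242, 1388 and 143, and 3023 and 3290, with its lowest values in Ascl5Mut/WT.

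Dlx6 is a homeobox gene of jaw development. Dlx6os2 lies inside it, opposite coding bases of it, and had 635 and 1987 in Ascl5WT/WT, 505 and 138 in Ascl5Mut/WT, and 987 and 1141 in Ascl5Mut/Mut. Dlx6 was at about 1 estimated read in both Ascl5WT/WT libraries, 109 and 120, and at 0 in the 4 mutant libraries. Srrm4 encodes a splicing regulator of neurons, and Srrm4os had 801 to 3750 against 0 to 1101. Ino80d encodes a chromatin-remodelling subunit, and Ino80dos had 400 to 2490 against 0 to 418. Ino80dos lies opposite 431 exon bases of Ino80d and 489 of Ndufs1. Atxn7l1os2 had 1217 to 2817 against 0 to 291 for Atxn7l1, and Fam219aos 807 to 3042 against 0 to 1114 for Fam219a. Phtf1os (chr3:103964536-103968581) was second in abundance by mean. It had 25004 and 22241 in Ascl5WT/WT, 15878 and 17418 in Ascl5Mut/WT, and 15899 and 10545 in Ascl5Mut/Mut. All 4 mutant libraries lay below both Ascl5WT/WT libraries. Phtf1 had 285 to 937. Of the 4046 exon bases of Phtf1os, 448 lie opposite Phtf1 and 2101 opposite Rsbn1, which had 1685 to 5865.

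**Figure D4:**
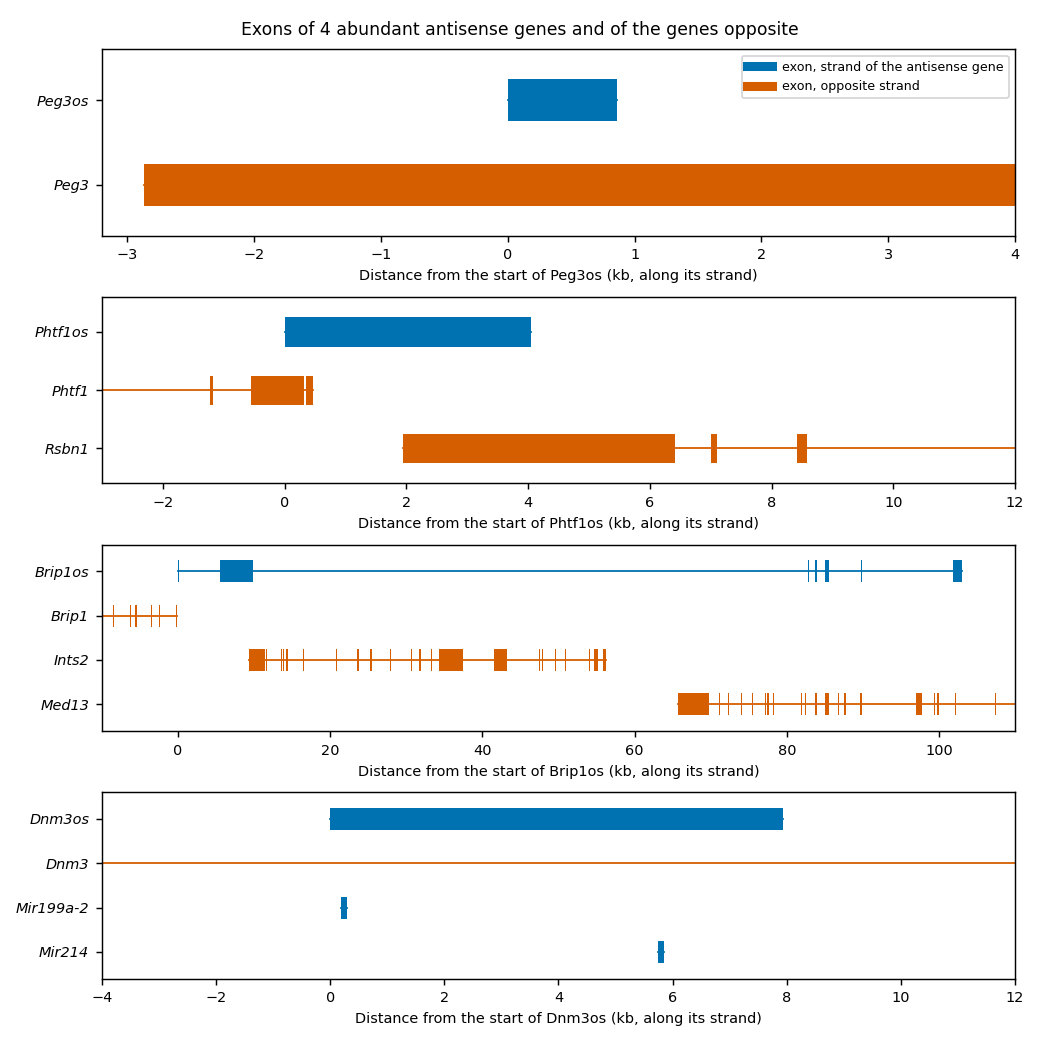
Exons (boxes) and gene spans (lines) at 4 loci, with distance in kb from the start of the antisense gene along its strand on the x axis, and opposite-strand genes in orange. Peg3os lies wholly within Peg3 exon, Phtf1os opposite Phtf1 and Rsbn1, Brip1os opposite Ints2 and Med13, and Dnm3os in an intron of Dnm3 with 2 microRNA genes in its exon.

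The remaining 146 antisense genes averaged under 1000 in both tables. Of these, 83 were at 0 in all 6 libraries, 40 averaged at least 100, and the highest single value was 2407, for Zeb2os in Ascl5Mut/WT replicate 1. Only 5 were above 0 in all 6 libraries: Fbxl12os, Rsf1os2, Tnk2os, Tomm6os and Zbtb11os1. Rsf1, a chromatin-remodelling factor gene, has 2 antisense genes that behaved differently: Rsf1os2 had 446 to 1628, while Rsf1os1 was at 0 in all 6 libraries. Rsf1 itself had 400 to 1512.

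Start regions differed by arrangement. RefSeq windows from 250 bases before to 50 after the start (GRCm38.p6) were found for 141 antisense genes. The letters GGGCGG, on either strand, were in 47 of them (33.3%) and in 35.7% of all 32851 windows. They were in 34 of 68 windows of head-to-head genes, overlapping or apart, and in 4 of 42 (9.52%) of genes inside the partner. Median GC content was 59.7% and 51.0% in these 2 sets. The letters TATAAA, on either strand, were in 7.80% of antisense windows and 13.6% of all windows. Such matches describe the letters in the window only.

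Whether the mutation altered these genes was tested in each table with limma on log2(normalized count + 120), over genes averaging at least 1000. Differences are mutant minus Ascl5WT/WT on that scale, which understates the change of low genes. In Ascl5Mut/Mut against Ascl5WT/WT, 0 of the 22 antisense genes tested passed an adjusted p of 0.05, where 0.856% of all 2336 genes tested did (0.557% higher and 0.3% lower). At an unadjusted p under 0.05 there were 5 of 22, against 11.2% of all genes. In 4 of the 22 both mutant libraries were above both controls (22.0% of all genes) and in 6 below (21.8%). The median difference was -0.37 for the antisense genes and -0.02 for all genes. Of 15 partners tested, 0 passed and 2 had an unadjusted p under 0.05. Reads were also simulated with known changes and a spread set in advance, not estimated from these libraries. There, this fit recovered 37.3% of genes changed 4-fold and 67.2% of those changed 16-fold. Recovery in the real data may differ.

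The antisense gene nearest to passing was Kcnmb4os2, at 499 ± 495 in Ascl5Mut/Mut against 5607 ± 1270 in Ascl5WT/WT (mean ± SD, n = 2 each). Its difference was -3.47 (SE 0.79, limma adjusted p = 0.094). With quantile normalization it passed, with an adjusted p of 0.0353 in limma, and over all alternatives its adjusted p was 0.0353 to 0.708. Dnm3os was at 3731 ± 1579 against 12778 ± 2379 (SD, n = 2 each), a difference of -1.79 (SE 0.46, limma adjusted p = 0.156). Without Ascl5WT/WT replicate 2 the control arm is 1 library, assumed to vary like the 2 mutant libraries, which alone then give the spread. In that fit Dnm3os was under the threshold (limma adjusted p = 0.0216; range over alternatives 0.0216 to 0.708). In bulk tissue, fewer cells of a type and less RNA per cell cannot be told apart. Peg3os was at 120308 ± 41381 against 58333 ± 20371 (SD, n = 2 each), a difference of 1.04 (SE 0.32, limma adjusted p = 0.25). In the fit with 1 control library Peg3os was under the threshold as well (limma adjusted p = 0.00781; range 0.00781 to 0.726), while Peg3 differed by 0.38 (SE 0.54, adjusted p = 0.82).

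Larger differences with wider errors were those of Igf2os at 2.72 (SE 1.55, limma adjusted p = 0.543) and Arhgap27os3 at 2.68 (SE 1.03, limma adjusted p = 0.366). Igf2 differed by 2.16 (SE 0.68, limma adjusted p = 0.257), the smallest adjusted p among partners. Fam219aos differed by -1.14 and Phtf1os by -0.86, with limma adjusted p of 0.556 and 0.387. Dnm3 differed by 2.08 (SE 1.24, limma adjusted p = 0.557), opposite in sign to Dnm3os.

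In Ascl5Mut/WT against Ascl5WT/WT, 0 of 23 antisense genes tested passed, where 0.549% of 2370 genes did (0.338% higher and 0.211% lower). At an unadjusted p under 0.05 there were 2 of 23, against 8.73% of all genes. In 6 both mutant libraries were above both controls (21.1% of all genes) and in 6 below (19.5%). The median difference was -0.13, against 0.04 over all genes. Sorbs2os was nearest to passing, at 15824 ± 3449 against 7401 ± 1712 (SD, n = 2 each), a difference of 1.09 (SE 0.39, limma adjusted p = 0.311). Peg3os differed by 0.76 (SE 0.30, limma adjusted p = 0.397) and Bcas3os1 by 1.20 (SE 0.58, limma adjusted p = 0.566). The widest differences were 2.24 for Arhgap27os3, -1.96 for Stk35os1, -1.60 for Grin1os, 1.20 for Bcas3os1 and 1.09 for Sorbs2os. Of 16 partners tested, 0 passed and 1, Zfhx2, had an unadjusted p under 0.05, at -2.66 (SE 0.81, limma adjusted p = 0.222). The 2 comparisons share the same control libraries. Side by side, with Ascl5Mut/Mut first, Kcnmb4os2 differed by -3.47 and -1.02 and Dnm3os by -1.79 and -0.71. Phtf1os differed by -0.86 and -0.53, and Peg3os by 1.04 and 0.76. Others changed sign, among them Sorbs2os at -0.57 and 1.09, Uckl1os at -0.25 and 0.85, and Zfhx2os at -0.86 and 0.18. Bcas3os1 differed by 0.92 and 1.20. These genes are examples, and a trend over the genotypes was not tested. How many of all genes differed in the same direction in both comparisons was not counted.

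**Figure D5:**
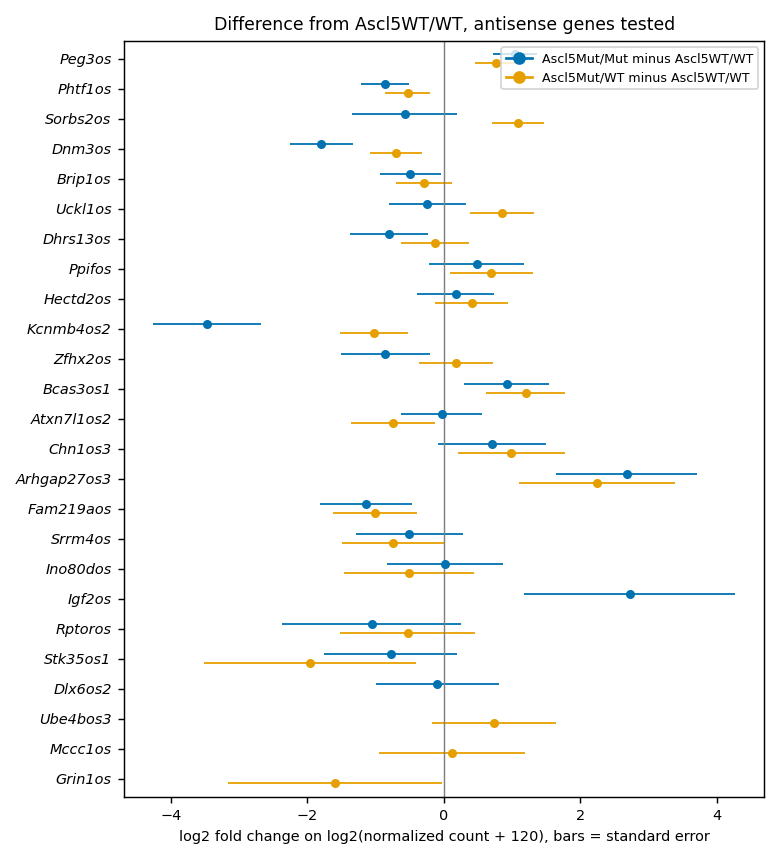
Difference of each tested antisense gene from Ascl5WT/WT (x axis, log2 scale with 120 added) for Ascl5Mut/Mut (blue) and Ascl5Mut/WT (orange), with bars of 1 standard error. Kcnmb4os2 at -3.47 and Dnm3os at -1.79 lie lowest for Ascl5Mut/Mut, and no gene passed the adjusted threshold in either comparison.

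Markers of other cell types differed between these libraries as well. Summed osteoclast markers (3 genes) were 430 and 120 in Ascl5WT/WT, 7838 and 2032 in Ascl5Mut/WT, and 16198 and 9923 in Ascl5Mut/Mut. Summed bone markers (4 genes) were 329 and 6333, 17356 and 7113, and 26603 and 21837. Summed markers of keratinized oral epithelium (4 genes) were 109 and 306, 12926 and 40064, and 17974 and 114078. In Ascl5WT/WT, Krt76, Rptn, Phex and Dmp1 were at 0 in both libraries. The part of these cells in the values of Kcnmb4os2, Dnm3os, Peg3os and the other antisense genes was not tested. Summed endothelium markers (3 genes) were 365 and 583 in Ascl5WT/WT and 1383 and 1538 in Ascl5Mut/Mut, and Schwann cell markers (3 genes) 104.8 and 0 against 2520 and 864. In Ascl5Mut/WT they were 278 and 572 for endothelium and 0 in both libraries for Schwann cells. Muscle markers (4 genes) summed to 434 and 4574, 5421 and 2767, and 19440 and 560, and their groups overlapped. Blood markers (4 genes) summed to 453 and 16400, 492 and 1935, and 3283 and 783. Their lowest and highest sums were both in Ascl5WT/WT.

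For comparison, 44 of a list of other long noncoding RNA genes were in the tables. Of 11 tested for Ascl5Mut/Mut, 0 passed limma's adjusted threshold and 3 had an unadjusted p under 0.05, against 11.2% of all genes. In 5 both mutant libraries were above both controls (22.0% of all genes) and in 0 below (21.8%), and the median difference was 0.87. Kcnq1ot1, the antisense RNA of an imprinted domain, had 2407 and 4716 in Ascl5WT/WT, 14584 and 8274 in Ascl5Mut/WT, and 19328 and 8834 in Ascl5Mut/Mut. All 4 mutant libraries were above both controls, and the difference for Ascl5Mut/Mut was 1.92 (SE 0.52, limma adjusted p = 0.191). The share of all genes with every mutant library above both controls was not counted. Of 10 tested for Ascl5Mut/WT, 0 passed limma's adjusted threshold and 2 had an unadjusted p under 0.05 (8.73% of all genes). In 3 both mutant libraries were above both controls (21.1% of all genes) and in 0 below (19.5%), with a median of 0.47.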

How the data were processed

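The authors deposited normalized gene counts, a linear signal, in 2 tables of 4 libraries that were normalized separately, each with the 2 Ascl5WT/WT libraries. The authors used mm10 and DESeq2, per the submitters' processing notes; no aligner or annotation is named in the sources used here. The step of low values gave the worth of 1 read; 86.4% to 93.9% of values up to 5 steps lay within 0.1 of whole steps, too few to recover counts, so no count model was run. Each table was fitted alone with limma 3.58.1 (R 4.3.3) on log2(normalized count + 120), using its intensity trend, over genes averaging 1000 or more, two-sided, with Benjamini-Hochberg adjustment over all genes tested. The fit was checked in 20 simulations with a spread set in advance, each with 200 genes altered by known folds. Exon overlaps came from GENCODE vM21. Genes named are all antisense genes averaging 1000 or more in either table, the 5 with the widest difference, those with extreme ratios to a partner averaging 1000, and their partners. Antisense genes were chosen by symbol, not by value. The rule, the lists, the pseudocount of 120 and the minimum mean of 1000 were set with earlier results of these data known. Alternatives were another pseudocount, filter, scaling or block, and leaving out each library.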

Additional observations from a re-analysis of the deposited data

How the results depend on the processing

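Counts of all genes passing limma depended on the settings. For Ascl5Mut/Mut, 20 genes passed, against 4 with a pseudocount of 1, 1 with a minimum mean of 10 and 1 with no filter, 0 with a pseudocount of 1 and a minimum mean of 10 together, 40 with quantile normalization, and 0 to 75 when single libraries were left out. For Ascl5Mut/WT, 13 passed, against 8 with a pseudocount of 1, 0 with that and a minimum mean of 10, and 0 to 35 when single libraries were left out. Antisense genes passing for Ascl5Mut/Mut went from 0 to 1 with quantile normalization (Kcnmb4os2) and to 0 to 2 when single libraries were left out (Dnm3os and Peg3os, both without Ascl5WT/WT replicate 2, where the lone control is assumed to vary like the mutant libraries). With the replicate number as a block, 36 genes passed for Ascl5Mut/Mut, 1 of them antisense (Kcnmb4os2, limma adjusted p = 0.04896), and 37 for Ascl5Mut/WT, with 1 partner (Zfhx2) and 0 antisense genes; same-numbered deviations correlated at -0.013 and 0.023 across genes, so the numbers were not taken as pairs, although Tsix was at 0 in each replicate 1 and high in each replicate 2. Detection in all 6 libraries went from 27 to 16 antisense genes at the 3-read floor, and the 22 pairs with the antisense gene above became 16 to 26. Of 352 alternatives of single genes, 341 kept direction and side of the threshold, 4 passed, and 7 changed sign. Without single libraries, Peg3 for Ascl5Mut/Mut ranged from -0.31 to 1.07 (negative without Ascl5WT/WT replicate 1, at -0.15, or Ascl5Mut/Mut replicate 1) and Zfhx2 from -0.71 to 0.21 (positive without Ascl5WT/WT replicate 2). For Ascl5Mut/WT, Grin1os ranged from -1.90 to 0.35 (positive without Ascl5Mut/WT replicate 2), Peg3 from -0.47 to 0.63 (negative without Ascl5WT/WT replicate 1 or Ascl5Mut/WT replicate 1, at -0.12), and Ube4b from -0.60 to 0.014 (positive without Ascl5Mut/WT replicate 1). The cause of these shifts was not tested. With 2 libraries a group and 108.7 to 139.8 normalized counts to a read, values under the 3-read floor rest on single reads.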
